A study of Daphnia magna with 335 samples.

Results

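Metribuzin-DA is a breakdown product of metribuzin, a herbicide that blocks photosystem II in plants. The 3 libraries described here came from Daphnia magna, a freshwater crustacean with no photosystem of its own, kept for 24 h at 2.113 µM Metribuzin-DA. They were taken by their labels, as the 3 pools of that concentration code, and make up 3 of the 335 libraries of the series. The concentration was chosen with earlier results of these data known, and no p-value here allows for that choice. The series asked at which concentrations contaminants found in Great Lakes tributaries change transcripts in Daphnia. Metribuzin-DA was given at 8 nominal concentrations, 0.021, 0.067, 0.212, 0.669, 2.113, 6.677, 21.1 and 66.67 µM, with 3 pools of whole animals at each and 5 animals pooled per library. The reference was the 6 pools of animals in the solvent dimethyl sulfoxide (DMSO) of the same exposure. Their labels name 3 of these CON and 3 XtraC without saying how they differ. DMSO was brought to the same level in all wells, at most 0.34%, so the treated animals carried it too. A second chemical, 2-tert-Butyl-4-methoxyphenol, was tested in the same exposure against the same 6 pools.

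TempO-Seq, the assay used, joins pairs of short detector oligonucleotides on their target transcript and counts the joined pairs, so each value is the count of 1 probe. In whole-body homogenates, fewer cells of a kind and less RNA per cell cannot be told apart. Each pool was made within 1 of 3 plates, and whether the plates held separate cultures is not stated, so p-values measure the spread between pools. The table held 2378 probes for 1988 gene identifiers. None of the identifiers was found in the reference gene table (0 matches) and the files pair none with a gene name, so the kinds of gene that moved are not given and single probes appear by identifier. The 2.113 µM libraries A, B and C held 866625, 781704 and 774302 counts, against 428776 to 1040341 in the DMSO pools, and all 335 libraries of the series held 118094 to 1171681. No libraries held identical counts.

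At 2.113 µM, 92 probes were higher and 73 lower than in the DMSO pools. These 165 calls are 11.1% of the 1487 probes tested. A call here means a Benjamini-Hochberg adjusted p under 0.05 from the quasi-likelihood F test of edgeR. The higher probes were 6.19% of those tested and the lower probes 4.91%. The median log2 fold change of all 1487 probes was -0.004. In CPM, the count of a probe divided by its scaled library total and brought to a common total for all libraries, the 92 higher probes summed to 59261 CPM at 2.113 µM and to 35005 CPM in DMSO. The 73 lower probes summed to 86831 CPM at 2.113 µM and to 136970 CPM in DMSO. DESeq2, a second count model, called 181 probes, 94 higher and 87 lower.

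**Figure D1:**
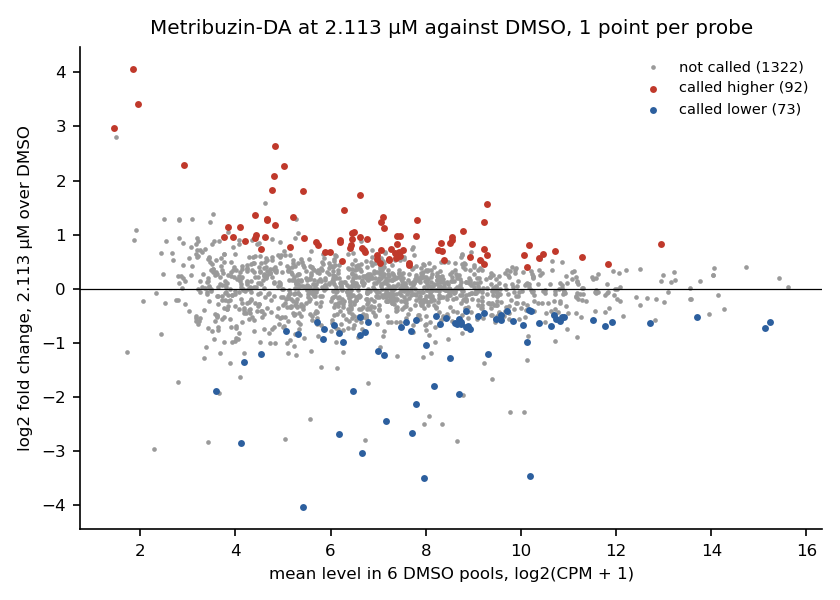
Log2 fold change at 2.113 µM over DMSO (vertical axis) against the mean level in the 6 DMSO pools, as log2(CPM + 1) (horizontal axis), with 1 point for each of 1487 probes. The 92 probes called higher (red) and the 73 called lower (blue) lie on both sides of 0, and most changes were below 1 in size.

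Most of these changes were small. The median log2 fold change was 0.84 among the higher probes, with a range of 0.40 to 4.06, and -0.69 among the lower probes, with a range of -4.04 to -0.40. A change of at least 1 on the log2 scale was reached by 27 of the higher and 20 of the lower probes, and a change of at least 2 by 7 and 9. Probes with over 100 CPM in DMSO made up 56.5% of the higher probes, 75.3% of the lower probes and 54.2% of all tested. In 79 of the 92 higher probes all 3 libraries at 2.113 µM lay above all 6 DMSO pools; 135 probes, 9.08% of all tested, did so. In 68 of the 73 lower probes all 3 lay below; 130 probes, 8.74% of all tested, did so. These folds and counts come from the contrast that chose the probes and are a description only. The threshold fell among many like values, with 28 probes at an adjusted p of 0.04 to 0.05 and 14 at 0.05 to 0.06, while 32 were under 0.01.

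The number of calls varied with the pools used. Leaving pools out also lowers the number of samples, and the part of this in the counts was not tested. Without pool A at 2.113 µM 70 probes were called, without pool B 53 and without pool C 102. Without DMSO pool CON_A 81 were called and without XtraC_C 87, while leaving out any other DMSO pool gave 116 to 164. With the 3 CON pools as the only reference 23 probes were called, and with the 3 XtraC pools 3. Between the CON and the XtraC pools themselves edgeR called 0 probes, or 0% of those tested, and DESeq2 also 0, while 25 had an unadjusted p under 0.05.

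Some genes had more than 1 probe. Of 126 gene identifiers with at least 2 tested probes, 27 held a called probe, and 7 held at least 2, which in all 7 moved in 1 direction. Taking in each of the 27 the called probe with the largest change, 26 of the 29 remaining probes had a fold change of the same sign, or 89.7%. Over all 126 identifiers, whether called or not, this was so for 90 of 135 remaining probes, or 66.7%. Probes of 1 gene share the transcript and the libraries, so these are not separate measurements of the pools.

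As libraries, the 3 pools at 2.113 µM lay farther from the DMSO mean than any DMSO pool. The distance of a library is the SD over tested probes of its log2 CPM minus a mean of 5 DMSO pools. A DMSO pool was left out of its own mean, and a treated library was set against each mean of 5 in turn and averaged, so both kinds had a reference of equal size. The distance was 0.627, 0.831 and 0.789 in pools A, B and C, against 0.406 to 0.517 in DMSO. The means were 0.749 ± 0.108 (SD, n = 3) at 2.113 µM and 0.446 ± 0.0455 (SD, n = 6) in DMSO, with no overlap. In a two-sided exact permutation test p was 0.0119, the smallest that 3 against 6 pools allow, and 0.0476 adjusted over 4 library measures. With the reference redrawn and all distances recomputed in each of the 84 arrangements, a test added after seeing the data, the exact permutation p was 0.0119 too. Total counts were 807540 ± 51300 at 2.113 µM and 668200 ± 231170 in DMSO (exact permutation p = 0.333). Probes with any count numbered 1862 ± 9.29 at 2.113 µM and 1830.5 ± 24.3 in DMSO (exact permutation p = 0.0714). The share held by the 10 most counted probes was 28.7% ± 1.87 at 2.113 µM and 28.7% ± 0.925 in DMSO (exact permutation p = 0.988).

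**Figure D2:**
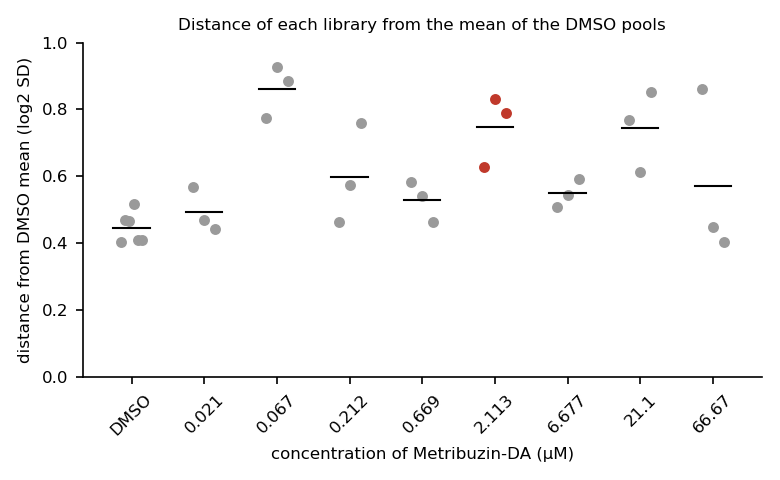
Distance of each library from the mean of the DMSO pools, as an SD of log2 differences (vertical axis), by concentration of Metribuzin-DA in µM (horizontal axis), with 1 point per library and a line at each mean. The 3 libraries at 2.113 µM (red) lie above all 6 DMSO pools, and so do libraries at other concentrations, up to 0.926.

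A large distance was not confined to 2.113 µM. Of the 21 libraries at the other concentrations, 7 lay farther from DMSO than the nearest library at 2.113 µM and 4 farther than the farthest, the highest being 0.926 in pool B at 0.067 µM. The mean distance was 0.863 at 0.067 µM and 0.745 at 21.1 µM. Total counts at 0.067 µM ran from 277137 to 657571, below those at 2.113 µM. At 21.1 µM pools A, B and C held 250382, 753791 and 879686 counts, with distances of 0.768, 0.613 and 0.853. The part of depth in these distances was not tested.

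The next question was whether the neighbouring concentrations showed the change too. They share the 6 DMSO pools with 2.113 µM, so the counts are given side by side. At 0.669 µM edgeR called 1 probe against DMSO (0.0672% of those tested), and DESeq2 1. At 6.677 µM edgeR called 0 probes (0%) and DESeq2 0, while 149 had an unadjusted p under 0.05. Among the remaining concentrations edgeR called 34 probes at 0.067 µM, 31 higher and 3 lower, where DESeq2 called 57, 45 higher and 12 lower. At 21.1 µM edgeR called 2 lower probes and DESeq2 24 probes, 2 higher and 22 lower. EdgeR called 0 at 0.021, 0.212 and 66.67 µM, where DESeq2 called 1, 0 and 0 and the unadjusted p was under 0.05 for 60, 90 and 56 probes.

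**Figure D3:**
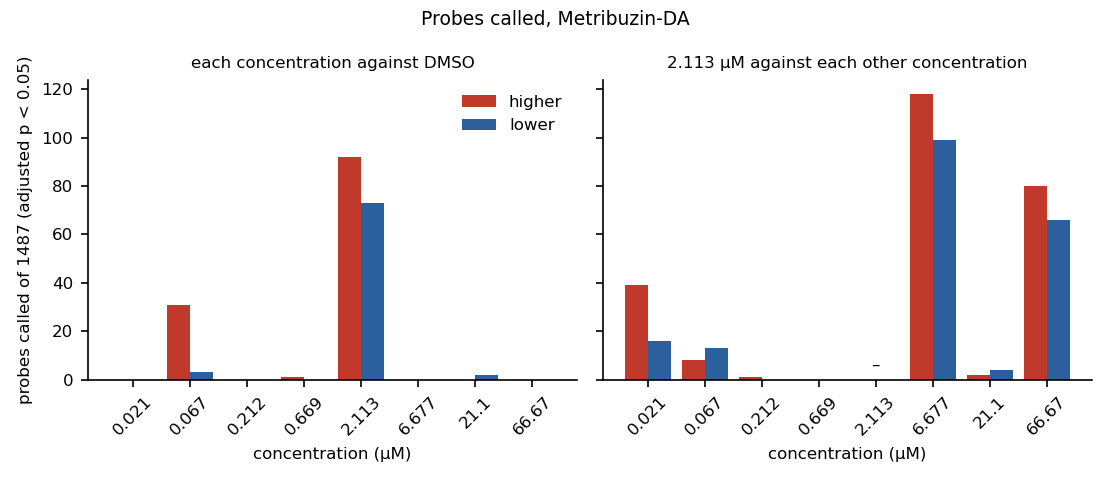
Number of the 1487 tested probes called at an adjusted p under 0.05 (vertical axis), higher in red and lower in blue, by concentration in µM (horizontal axis), for each concentration against DMSO (left) and for 2.113 µM against each other concentration (right). Against DMSO the 92 higher and 73 lower calls at 2.113 µM are the most at any concentration, while against 0.669 µM none was called.

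The difference between concentrations was then tested itself, without DMSO in the contrast. Against the mean of 6.677 and 0.669 µM, 134 probes were called at 2.113 µM, 70 higher and 64 lower, or 9.01% of those tested. Without pool B at 2.113 µM this count was 4, without pool A 37, without pool C at 0.669 µM 36 and without pool C at 6.677 µM 72. Against the mean of the other 7 concentrations 149 probes were called, 98 higher and 51 lower, or 10%. All contrasts of this kind share the 3 libraries at 2.113 µM with the contrast against DMSO, so they are not independent of it.

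Taken singly, the concentrations varied widely in the number of probes called against 2.113 µM. Against 6.677 µM 217 probes were called at 2.113 µM (14.6%; 118 higher, 99 lower), and against 66.67 µM 146 (9.82%; 80 higher, 66 lower). Against 0.021 µM 55 were called (3.70%), against 0.067 µM 21 (1.41%), against 21.1 µM 6 (0.403%) and against 0.212 µM 1 (0.0672%). Against 0.669 µM, the next lower concentration, edgeR called 0 probes (0%), while DESeq2 called 12, 2 higher and 10 lower, and 210 had an unadjusted p under 0.05. DESeq2 called 264 probes against 6.677 µM, 179 against 66.67 µM, 88 against 0.021 µM, 55 against 0.067 µM (15 higher, 40 lower), 66 against 21.1 µM and 9 against 0.212 µM. A probe that was not called is not shown to be alike at both concentrations. The single contrasts were chosen after the counts at the neighbouring concentrations were known.

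The probes called against DMSO were followed through the other concentrations. The median log2 fold change over DMSO of the 92 higher probes was 0.02, 0.29, 0.39 and 0.31 at 0.021, 0.067, 0.212 and 0.669 µM, 0.84 at 2.113 µM, and -0.03, 0.11 and -0.10 at 6.677, 21.1 and 66.67 µM. For the 73 lower probes it was -0.12, -0.32, -0.30 and -0.15 at the 4 concentrations below, -0.69 at 2.113 µM, and -0.0009, -0.20 and 0.0008 at the 3 above. Choosing the probes at 2.113 µM fixes that the values there are the largest, and the shared DMSO pools tie all of these medians together. For the contrast without DMSO against 0.669 and 6.677 µM, 49 of the 92 were called higher and 47 of the 73 lower, with medians of 0.68 and -0.66. Of all tested probes, 4.71% were called higher and 4.3% lower in that contrast. Against 0.669 µM alone the medians were 0.52 and -0.55, with 0 of the 165 called. Against 6.677 µM alone they were 0.85 and -0.70, with 56 and 47 called. Of all tested probes, 7.94% were called higher and 6.66% lower against 6.677 µM. The 3 libraries at 2.113 µM that chose the probes enter these contrasts too, so the counts are a description only.

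**Figure D4:**
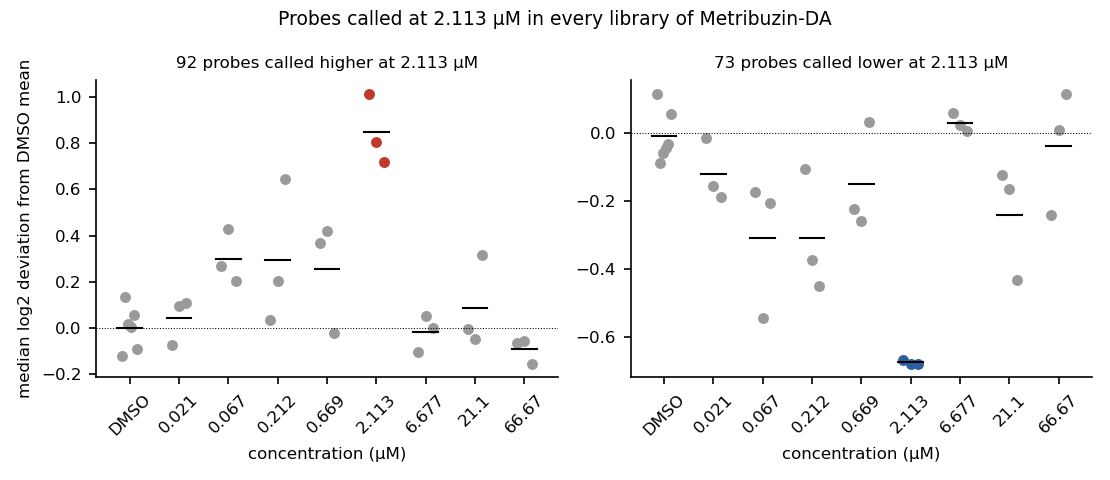
Median log2 deviation from the DMSO mean (vertical axis) of the 92 probes called higher (left) and the 73 called lower (right), by concentration of Metribuzin-DA in µM (horizontal axis), with 1 point per library and a line at each mean. The probes were chosen at 2.113 µM, where the 3 libraries (coloured) lie at 0.718 to 1.015 and at -0.678 to -0.665, outside every other library shown.

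Library by library, the median deviation of the 92 higher probes from the DMSO mean was 1.015, 0.807 and 0.718 in pools A, B and C at 2.113 µM, and -0.118 to 0.136 in the DMSO pools. That of the 73 lower probes was -0.665, -0.678 and -0.678 in pools A, B and C, and -0.088 to 0.117 in the DMSO pools. All 3 pools lay outside the DMSO range in both groups of probes, which the choice of the probes favours. Among the other 21 libraries of Metribuzin-DA, 0 reached the range at 2.113 µM in either group of probes. The nearest among the higher probes was pool C at 0.212 µM, with 0.644. At 0.669 µM the 3 pools were spread, with 0.37, 0.42 and -0.02 for the higher probes.

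The 4 probes that follow were taken by a rule on size and level, so their changes are larger than those of most called probes. The rule took called probes whose pools at 2.113 µM did not overlap DMSO, so that lack of overlap is part of it. Contrasts of these probes with other concentrations or with the co-tested chemical reuse the libraries at 2.113 µM that chose them. Their p-values are therefore not independent of that choice. Dapma7bEVm019556_96084 had the largest rise. It had 72.4, 40.3 and 31.4 CPM in pools A, B and C at 2.113 µM (63, 31 and 27 counts), against 0 to 7.51 CPM in DMSO with a median of 1.78. The log2 fold change was 4.06 ± 0.70 (SE), with an adjusted p of 0.00382 in edgeR. This probe was nearly uncounted in most other libraries of Metribuzin-DA. Its means were 2.85, 10.6, 11.8 and 8.38 CPM at 0.021, 0.067, 0.212 and 0.669 µM, and 1.56, 0.384 and 0.754 CPM at 6.677, 21.1 and 66.67 µM. Pool C at 0.212 µM held 31.9 CPM and was the 1 of the other 21 libraries that reached the lowest pool at 2.113 µM. The difference from 0.669 µM alone, 2.47 ± 0.74 on the log2 scale, did not pass (adjusted p = 0.169), and that from the mean of both neighbours, 3.65 ± 0.66, did (adjusted p = 0.00565).

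Dapma7bEVm001618_96007 was the most counted probe among those that rose by at least 1 on the log2 scale. It had 1883, 1922 and 1789 CPM in pools A, B and C at 2.113 µM, against 404 to 1133 CPM in DMSO with a median of 534. The means were 1864 ± 68.4 CPM at 2.113 µM (SD, n = 3) and 627 ± 265 CPM in DMSO (SD, n = 6), and the log2 fold change was 1.57 ± 0.36 (SE), with an edgeR adjusted p of 0.00994. At 0.669 µM it stood at 998 ± 443 CPM and at 6.677 µM at 581 ± 104 CPM. Its means were 484, 697 and 841 CPM at 0.021, 0.067 and 0.212 µM, and 470 and 458 CPM at 21.1 and 66.67 µM. Pools A and B at 0.669 µM held 1274 and 1233 CPM, and pool C at 0.212 µM held 1585 CPM. All of these pools lay above every DMSO pool. Of the other 21 libraries of Metribuzin-DA, 0 reached the lowest pool at 2.113 µM. The difference of 2.113 from 0.669 µM, 0.90 ± 0.43 on the log2 scale, did not pass (adjusted p = 0.351). That from the mean of both neighbours, 1.29 ± 0.36, did (adjusted p = 0.0294).

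Dapma7bEVm010304_96356 had the largest fall. It had 6.90, 0 and 0 CPM in pools A, B and C at 2.113 µM, all from 6 counts in pool A, against 11.3 to 69.2 CPM in DMSO with a median of 38.6. The fitted log2 fold change was -4.04 ± 1.01 (SE, adjusted p = 0.0153 in edgeR), a size that depends on how counts of 0 are treated. Without pool B or pool C at 2.113 µM the adjusted p was 0.071 and 0.0601. Low values also occurred elsewhere, with a mean of 7.16 CPM at 21.1 µM, and 2 of the other 21 libraries of Metribuzin-DA, at 6.677 and 21.1 µM, reached the range at 2.113 µM.

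Dapma7bEVm010997_96071 was the most counted probe in DMSO among those that fell by at least 1 on the log2 scale. It had 303, 0 and 8.15 CPM in pools A, B and C at 2.113 µM (264, 0 and 7 counts), against 904 to 1619 CPM in DMSO with a median of 1095. The log2 fold change was -3.47 ± 1.09 (SE, adjusted p = 0.0418 in edgeR). It had a mean of 155 CPM at 21.1 µM and ran from 22.8 to 2401 CPM at 66.67 µM, and 4 of the other 21 libraries, at those 2 concentrations, reached the range at 2.113 µM. Against the mean of both neighbours it did not pass (-3.29 ± 1.08, adjusted p = 0.0545). Without pool B or pool C at 2.113 µM the adjusted p against DMSO was 0.140 and 0.132, and without any DMSO pool but CON_C it was 0.0511 to 0.0679.

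**Figure D5:**
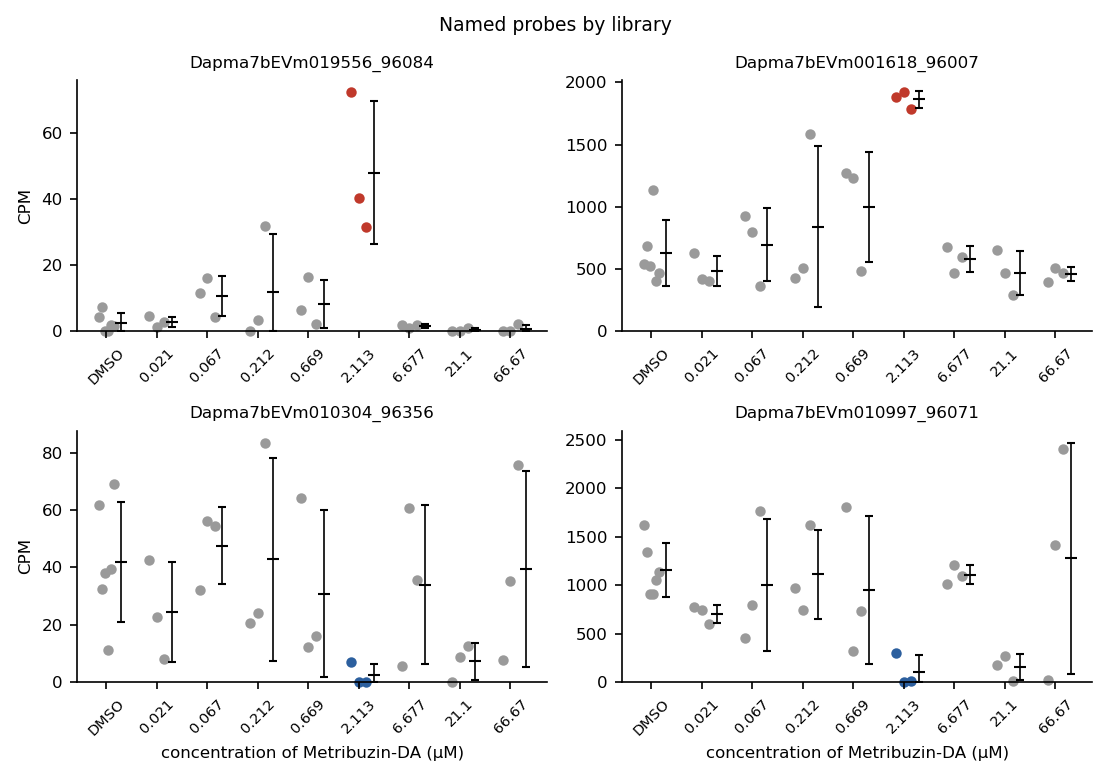
CPM of the 4 named probes (vertical axes) by concentration of Metribuzin-DA in µM (horizontal axes), with 1 point per library and bars at the mean ± SD. The upper probes are high in all 3 libraries at 2.113 µM (red), and the lower probes stand at 0 to 303 CPM there (blue), with low libraries at 21.1 µM too.

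The last comparison set Metribuzin-DA at 2.113 µM against 2-tert-Butyl-4-methoxyphenol at the same concentration in the same exposure. Of 1514 probes edgeR called 0 (0%), with 160 at an unadjusted p under 0.05, and DESeq2 called 1, which was lower with Metribuzin-DA. The 92 probes had a median log2 difference of 0.60 and the 73 probes of -0.52 between these chemicals. The Metribuzin-DA libraries that chose these probes enter this contrast, so both medians are a description only. Dapma7bEVm019556_96084 averaged 47.6 CPM with Metribuzin-DA and 2.88 ± 2.53 CPM with the methoxyphenol, a log2 difference of 4.02 ± 0.97 that did not pass (adjusted p = 0.132). Dapma7bEVm001618_96007 averaged 1851 CPM with Metribuzin-DA and 838 ± 620 CPM with the methoxyphenol, a log2 difference of 1.17 ± 0.54 (adjusted p = 0.424). The falls did not pass in edgeR either. Their log2 differences were -3.59 ± 1.19 for Dapma7bEVm010304_96356 (adjusted p = 0.275) and -2.81 ± 1.20 for Dapma7bEVm010997_96071 (adjusted p = 0.381).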

How the data were processed

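TempO-Seq counts of whole Daphnia magna pools were used. The authors deposited raw counts per probe, in whole numbers per the file values. They also deposited a table of log2 values for Metribuzin-DA, which equals log2(count + 1) within 5e-09 and is not scaled for library totals; it gave the concentrations and the values for a limma fit. The submitters' processing notes name bcl2fastq; the aligner and the probe counter are not named there. Columns matched to no sample numbered 0.

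Counts of the 24 Metribuzin-DA and 6 DMSO libraries were fitted together in R 4.3.3 with edgeR 4.0.16, using filterByExpr, TMM scaling and the quasi-likelihood F test; the filter left 1487 of 2378 probes and 21 residual degrees of freedom. Contrasts with the co-tested chemical used all 54 libraries of the exposure and 1514 probes. P-values were adjusted by Benjamini and Hochberg over all probes of a contrast, with a threshold of 0.05. SE is the size of the log2 fold change divided by the square root of F. Distances used log2 CPM with a prior count of 2. DESeq2 1.42.0 and limma 3.58.1 were alternatives. The edgeR step was run on simulated counts in which probes varied independently. That run cannot address shifts shared by the probes of a pool. Figures were drawn with matplotlib 3.10.9.

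Named probes were, among called probes without overlap of the pools, the largest rise and fall, and the most counted probe at 2.113 µM among rises, and in DMSO among falls, of at least 1 on the log2 scale. The concentration, probes and tests were chosen with earlier results of these data known. The contrasts of 2.113 µM with single concentrations, and with 2-tert-Butyl-4-methoxyphenol at 0.212 µM, were added after seeing the data.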

Additional observations from a re-analysis of the deposited data

How the results depend on the processing

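The 165 calls at 2.113 µM against DMSO became 108 with no filter on low counts (70 higher, 38 lower). With limma on the deposited log2 values, which are not scaled for library totals, they became 13 (9 higher, 4 lower). Calls numbered 23 against the CON pools alone and 3 against the XtraC pools alone, and ran from 53 to 164 with 1 pool left out. The last 3 of these held fewer samples, and the cause of the changes was not tested. The other 6 settings gave 143 to 244. The 134 calls against the mean of both neighbours became 81 with only the compared groups fitted and 10 with limma, and ran from 4 to 174 with 1 pool left out. The 1 call at 0.669 µM became 0 with only the compared groups, with both chemicals fitted, with limma, and against the CON or the XtraC pools alone, and was 0 or 1 with 1 pool left out. The 0 calls against 2-tert-Butyl-4-methoxyphenol at 2.113 µM became 1 in DESeq2. The excess of higher over lower calls did not hold in every setting. Against the mean of both neighbours it reversed in several, DESeq2 and limma among them. Against DMSO it reversed with only the compared groups fitted. The log2 fold changes of the named probes kept their sign in all settings. Of the named probes, over 19 alternatives each, Dapma7bEVm019556_96084 passed in all, Dapma7bEVm001618_96007 in 18, Dapma7bEVm010304_96356 in 15 and Dapma7bEVm010997_96071 in 9; their adjusted p ran up to 0.0474, 0.0817, 0.071 and 0.140. With the letters A, B and C as a replicate block 170 probes were called at 2.113 µM; the deviations of same-letter pools correlated across probes at over 0.1 in 5 of 6 pairs, up to 0.289, and at -0.238 for pool A with XtraC_A, and 2 of the 3 libraries correlated best with their own letter. As this did not hold for every pair, the letters were not taken to pair the pools. The 3 pools per concentration limit what these counts can show, and counts under about 10 per library leave large relative errors.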

Other observations

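Single libraries of the co-tested chemical reached those of Metribuzin-DA at 2.113 µM, which was noticed in the data and then followed up. Of the 24 libraries of 2-tert-Butyl-4-methoxyphenol, 2 reached the range of the 2.113 µM libraries in the median of the 92 higher probes, and 1 of these also did so in the 73 lower probes. Both were pools at 0.212 µM, which is another concentration of another chemical in the same exposure. Dapma7bEVm019556_96084, Dapma7bEVm001618_96007, Dapma7bEVm010304_96356 and Dapma7bEVm010997_96071 reached their own range at 2.113 µM in 2, 3, 4 and 6 of these 24 libraries. Other concentrations were among them: Dapma7bEVm001618_96007 averaged 1812 ± 284 CPM with the methoxyphenol at 66.67 µM (SD, n = 3). Between Metribuzin-DA at 2.113 µM and 2-tert-Butyl-4-methoxyphenol at 0.212 µM edgeR and DESeq2 each called 0 of 1514 probes, while 38 had an unadjusted p under 0.05 in edgeR. The median log2 difference was 0.14 for the 92 probes and -0.18 for the 73, a description only, as the Metribuzin-DA libraries chose these probes. Dapma7bEVm019556_96084 averaged 47.6 ± 21.1 CPM with Metribuzin-DA at 2.113 µM and 43.2 ± 30.6 CPM with the methoxyphenol at 0.212 µM (SD, n = 3 each), a log2 difference of 0.08 ± 0.70 (SE). Dapma7bEVm001618_96007 averaged 1851 ± 44.0 CPM with Metribuzin-DA and 2158 ± 594 CPM with the methoxyphenol, a log2 difference of -0.21 ± 0.53. For the falls the values lay farther apart. Dapma7bEVm010304_96356 averaged 2.27 ± 3.93 CPM with Metribuzin-DA and 12.2 ± 8.91 CPM with the methoxyphenol, a log2 difference of -2.36 ± 1.30. Dapma7bEVm010997_96071 averaged 103 ± 171 CPM with Metribuzin-DA and 593 ± 321 CPM with the methoxyphenol, a log2 difference of -2.51 ± 1.18. Neither fall passed (edgeR adjusted p = 0.997 for each). These concentrations differ, a difference that was not called does not show that the pools were alike, and what the pools share beyond the exposure was not tested.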
